A study of Mus musculus with 6 samples.

Results

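The guanylate-binding proteins are a family of large GTPases, and 9 of their genes (Gbp2, Gbp3, Gbp4, Gbp5, Gbp6, Gbp7, Gbp8, Gbp9 and Gbp11) were described here out of 54446 entries of the expression table. They were taken by symbol, and each symbol matched 1 entry. Interferons induce these genes strongly in macrophages. The proteins belong to the dynamin superfamily, gather on the vacuoles and surfaces of intracellular pathogens, and help expose bacterial lipopolysaccharide to caspase-11, the cytosolic sensor that starts pyroptotic cell death. In the mouse they lie in a pair of gene clusters.

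The samples were bone marrow-derived macrophages, cells grown from the marrow of 6-week-old C57BL/6 mice, profiled by RNA sequencing. Cells were given PBS, a buffer, or KN93, a compound used to inhibit CaMKII, a kinase activated by calcium and calmodulin, at 5 µM or 10 µM. There were 3 groups of 2 samples, in mice with no stated genetic change, and no interferon or microbial stimulus is named in the labels. The labels give neither the duration of treatment nor whether the 2 samples of a group were grown from different animals or in different dishes. The p-values therefore rest on the variation among these 6 samples, part or all of which may be technical. Levels are given in FPKM, a fragment count scaled by gene length and library depth, so that different genes are compared per length, as mean ± SD with n = 2 per group. Changes are differences of log2(FPKM + 1), with the standard error from limma, a linear model fitted to the 12722 genes that reached 1 FPKM in 2 or more samples. A gene was called when its Benjamini-Hochberg adjusted p over all tested genes was under 0.05. Each of the 9 genes passed the expression filter, Gbp11 only through its levels in KN93-treated cells.

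The libraries held between 24170000 and 28380000 fragments, as implied by the size of the steps between low FPKM values. The 9 genes were covered by between 36 fragments (Gbp11 in a PBS sample) and 10500 fragments (Gbp2 in a 10 µM sample). All 12 macrophage markers examined were expressed. Their summed level, most of it Lyz2, was 22209 to 22800 FPKM with PBS, 16891 to 17349 at 5 µM and 9304 to 10212 at 10 µM. At 10 µM against PBS 9 of the 12 were lower and 1, Cd68, was higher, where 22% and 28.5% of all tested genes were. The part of these markers in the GBP results was not tested. In bulk RNA, fewer cells of a type and less RNA per cell cannot be told apart.

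On GRCm38, the plus-strand genes Gbp5 (142493978 to 142522344), Gbp7 (142530342 to 142550149), Gbp3 (142560026 to 142573209) and Gbp2 (142620602 to 142638008) lay in this order on chromosome 3, with Gbp2b between Gbp3 and Gbp2. The minus-strand genes Gbp8 (105014150 to 105139540), Gbp9 (105077630 to 105139539), Gbp4 (105115767 to 105139586), Gbp6 (105270702 to 105293698) and Gbp11 (105323042 to 105346472) lay on chromosome 5. Their Ensembl identifiers are ENSMUSG00000105504 (Gbp5), ENSMUSG00000040253 (Gbp7), ENSMUSG00000028268 (Gbp3), ENSMUSG00000028270 (Gbp2), ENSMUSG00000034438 (Gbp8), ENSMUSG00000029298 (Gbp9), ENSMUSG00000079363 (Gbp4), ENSMUSG00000104713 (Gbp6) and ENSMUSG00000092021 (Gbp11). Gbp11 is annotated as a polymorphic pseudogene and the others as protein-coding. Coding sequences of the 5 chromosome 5 genes were 89.6% to 95.9% identical over aligned bases (10 pairs, median 92.1%), while those of the 4 chromosome 3 genes were 61.6% to 78.3% identical (6 pairs, median 63%). Pairs across the chromosomes ranged from 61.1% to 76.3% (20 pairs, median 68.8%). Gbp3 and Gbp7, 78.3% identical to each other, were 71.4% to 76.3% identical to the chromosome 5 genes and 61.6% to 63.3% identical to Gbp2 and Gbp5. The codons of the P-loop, the segment that holds the phosphates of GTP, are shown for the likeness of the chromosome 5 genes and are given here from GENCODE M21 transcripts, 5′ to 3′, with the 24 bases of the loop in capitals.
Gbp2: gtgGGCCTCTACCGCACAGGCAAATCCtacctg
Gbp5: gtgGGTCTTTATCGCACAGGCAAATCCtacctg
Gbp3: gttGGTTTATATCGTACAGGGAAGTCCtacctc
Gbp7: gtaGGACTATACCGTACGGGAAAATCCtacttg
Gbp4: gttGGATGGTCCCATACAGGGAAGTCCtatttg
Gbp6, Gbp8, Gbp9 and Gbp11: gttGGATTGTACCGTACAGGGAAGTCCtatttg
The loop was the same, base for base, in Gbp6, Gbp8, Gbp9 and Gbp11, and Gbp4 differed from them at 3 bases. Gbp2 and Gbp5 differed from each other at 3 bases and from the shared chromosome 5 loop at 6 and 7. Gbp3 differed from that shared loop at 3 bases, as Gbp4 did, and from Gbp2 at 7. Gbp2 and Gbp5 also had in common, near the end of the coding sequence, that a cysteine codon (capitals) stood 4 codons before the stop codon. A cysteine at this place is the acceptor of a prenyl lipid, which anchors the GBP2 and GBP5 proteins in membranes.
Gbp2: tcgtctgggaagTGCactatactctga
Gbp5: catcatcatgacTGTgttataagctaa
None of the other 7 coding sequences had a cysteine codon at that place.

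Near-identical paralogs can share fragments, and how the authors assigned such fragments is not given in the sources used here. Of all 50-base words in the transcripts of a gene, the share found in no other annotated gene was 98% for Gbp2, 96.2% for Gbp3, 98.6% for Gbp5 and 87.3% for Gbp7. It was 92.2% for Gbp4, 92% for Gbp9, 81.9% for Gbp8 and 80.8% for Gbp11. Gbp6 stood apart at 29.3%, since 65% of its words also occur in Gm43302, a gene model that shares 1726 exon bases with it, and 45.9% in Gbp10. Gm43302 was listed at 0 FPKM in every sample. Gbp10 had 1 and 10 fragments in the PBS samples, 5 and 8 in those at 5 µM, and 23 and 17 in those at 10 µM, so the Gbp6 level is uncertain to the extent that fragments of these genes were assigned to it. Gbp4, Gbp8 and Gbp9 share 60 bases of their first exon. The other family entries in the table, Gbp2b and the pseudogene Gbp2-ps, had at most 3 fragments in any sample and are not described further.

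With PBS, Gbp2 was the most abundant member and Gbp11 the least. Gbp2 averaged 41.2 ± 7.11 FPKM with PBS, followed by Gbp9 (23.6 ± 2.13), Gbp3 (21.6 ± 2.79) and Gbp7 (17.5 ± 2.03). Gbp5 (4.54 ± 0.918), Gbp6 (3.75 ± 0.421), Gbp8 (2.59 ± 0.511), Gbp4 (2.41 ± 0.358) and Gbp11 (0.54 ± 0.0957) were lower. The ranges of the 2 PBS samples overlapped between Gbp9 and Gbp3, Gbp5 and Gbp6, and Gbp8 and Gbp4, although the first of each pair was the higher in both PBS samples.

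The first question the design poses is which members differed between 10 µM KN93 and PBS. The prenylated and most abundant member, Gbp2, was raised most in absolute level. Gbp2, which coats parasite-containing vacuoles in mouse cells, had 46.2 and 36.2 FPKM in the PBS samples, 52.7 and 51.5 in those at 5 µM, and 160.4 and 147 in those at 10 µM. The 10 µM samples stood far above the other 4, and the mean was 3.73 times that of PBS (log2 change 1.88 ± 0.12, limma adjusted p = 0.000137). Gbp3, also on chromosome 3, had 23.5 and 19.6 FPKM in the PBS samples, 26.2 and 26.8 in those at 5 µM, and 82.8 and 76.7 in those at 10 µM. The 2 genes had nearly the same relative profile, and Gbp3 rose by 1.84 ± 0.09 on the log2 scale at 10 µM against PBS (limma adjusted p = 7.04e-05).

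Gbp5, the other prenylated member, which has been linked to NLRP3 inflammasome assembly, had 5.19 and 3.89 FPKM in the PBS samples, 3.6 and 4.07 in those at 5 µM, and 16.5 and 12.6 in those at 10 µM. PBS and 5 µM samples overlapped, and both 10 µM samples lay above them (log2 change against PBS 1.49 ± 0.16, limma adjusted p = 9e-04). Gbp6 had 4.04 and 3.45 FPKM in the PBS samples, 5.66 and 6.05 in those at 5 µM, and 13.4 and 12.2 in those at 10 µM. This was a rise at each dose without overlap between any of the 3 groups, by 1.54 ± 0.08 at 10 µM against PBS (limma adjusted p = 9.56e-05). Gbp11 had 0.607 and 0.472 FPKM in the PBS samples, 2.21 and 3 in those at 5 µM, and 10.7 and 8.36 in those at 10 µM. Its groups did not overlap either, and in recovered fragments the samples held 44 and 36 in the PBS samples, 157 and 224 in those at 5 µM, and 698 and 639 in those at 10 µM. Its log2 change of 2.77 ± 0.15 at 10 µM against PBS was the largest of the family (limma adjusted p = 9.43e-05). The mean FPKM was 17.7 times that of PBS, a ratio that rests on few PBS fragments.

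Gbp7, Gbp8 and Gbp4 rose less. Gbp7, which in mouse macrophages has been linked to assembly of the phagocyte NADPH oxidase, had 18.9 and 16 FPKM in the PBS samples, 13 and 13.1 in those at 5 µM, and 27.1 and 23 in those at 10 µM. It was thus highest at 10 µM and lowest at 5 µM, with no overlap, and its rise at 10 µM against PBS was 0.50 ± 0.10 (limma adjusted p = 0.0103). Gbp8 had 2.95 and 2.22 FPKM in the PBS samples, 2.44 and 3.4 in those at 5 µM, and 6.79 and 4.83 in those at 10 µM (10 µM against PBS 0.92 ± 0.19, limma adjusted p = 0.0105). Without the PBS replicate 2 the Gbp8 call was lost at 0.77 (adjusted p = 0.0532), while adjusted p over all alternatives ran from 0.00303 to 0.0532. Gbp4 had 2.66 and 2.16 FPKM in the PBS samples, 1.78 and 2.2 in those at 5 µM, and 5.03 and 3.4 in those at 10 µM. Its rise of 0.60 ± 0.17 (limma adjusted p = 0.0305) was lost without the 10 µM replicate 1 (log2 change 0.37, adjusted p = 0.0974), without either PBS sample (0.71 and 0.0571 with replicate 1 left out, 0.49 and 0.132 with replicate 2 left out) and with no expression filter (0.60, 0.0968), over a range of adjusted p of 0.0119 to 0.132.

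Gbp9 was the exception. It had 25.1 and 22.1 FPKM in the PBS samples, 16.3 and 18.2 in those at 5 µM, and 24.9 and 19.9 in those at 10 µM. The 10 µM and PBS samples overlapped, and the change between them was -0.08 with a 95% confidence interval of -0.38 to 0.22 (limma adjusted p = 0.617).

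**Figure D1:**
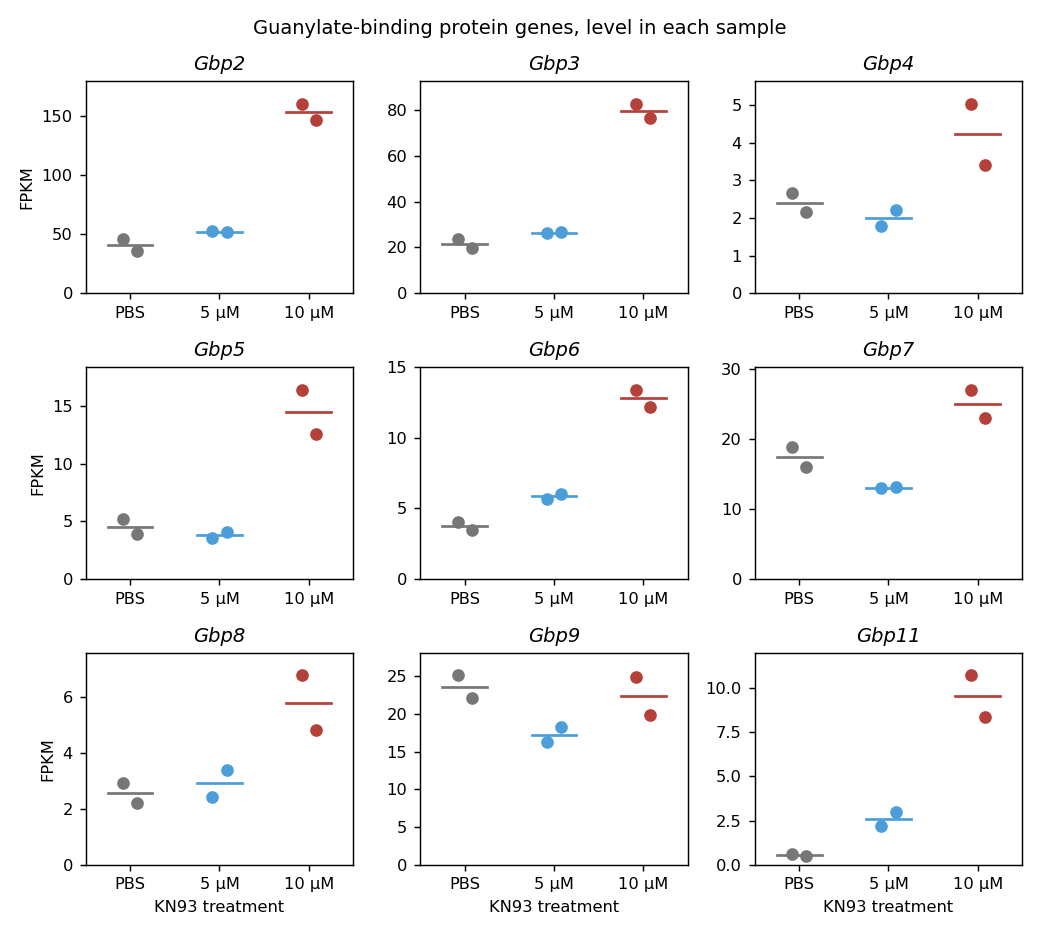
FPKM (vertical axes, linear and starting at 0) of the 9 genes in each of the 6 samples by treatment (horizontal axes); points are samples and lines are means of 2. The 10 µM samples lie above all PBS samples for 8 genes, while for Gbp9 the 10 µM samples, 24.9 and 19.9 FPKM, overlap the PBS samples.

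In all, 8 of the 9 members rose at 10 µM against PBS and 0 fell, where 28.5% of the 12722 tested genes rose and 22% fell (50.5% called). Both 10 µM samples lay above both PBS samples for those 8 members and for 44.2% of all tested genes, and below them for 0 members and 32.6% of all genes. With median-of-ratios scaling 2955 genes were called higher and 3219 lower, in place of 3631 and 2796. The median log2 change was 1.49 over the members and 0.05 over all tested genes. Of the 9 members, 5 rose by at least 1 on the log2 scale (Gbp2, Gbp3, Gbp5, Gbp6 and Gbp11), against 3.1% of all tested genes. Gbp11 is among the 8 and the 5. Since it passed the filter through KN93-treated samples alone, the filter favoured its rise. The members' count of rises was 8 under each scaling tried and between 6 and 8 with 1 sample left out.

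The second comparison set 5 µM KN93 against PBS, where 4 members were called, in both directions. Gbp11 rose by 1.22 ± 0.15 and Gbp6 by 0.53 ± 0.08 on the log2 scale (limma adjusted p = 0.00363 and 0.00771). On recovered fragments with voom, which adds no FPKM pseudocount, the Gbp11 change at 5 µM was 2.23. Gbp7 changed by -0.39 ± 0.10 and Gbp9 by -0.43 ± 0.12 (limma adjusted p = 0.0367 and 0.0459). Gbp2 and Gbp3 were higher in both 5 µM samples than in both PBS samples, with changes of 0.34 ± 0.12 and 0.29 ± 0.09 that missed the threshold (limma adjusted p = 0.0768 and 0.0609). With 1 sample left out these changes ran from 0.17 to 0.51 for Gbp2 and from 0.16 to 0.42 for Gbp3, and both passed without the PBS replicate 1 (adjusted p = 0.0196 and 0.0275). Gbp4, Gbp5 and Gbp8 overlapped between the groups. Their changes were -0.19 (95% confidence interval -0.61 to 0.23), -0.19 (-0.58 to 0.21) and 0.12 (-0.35 to 0.60). Without overlap, 4 members were higher and 2 lower at 5 µM than with PBS, against 37% and 33% of all tested genes. So 2 of 9 members rose and 2 fell, where 15.1% of all tested genes rose and 15.4% fell (30.5% called), and the median was 0.12 over the members and 0.01 over all genes. These shares are near the background. The rise of Gbp11 is 1 of the 2, and was favoured by the filter, which Gbp11 passed through KN93-treated samples alone. The falls of Gbp7 and Gbp9 are the less stable calls. Both were lost without either 5 µM sample (Gbp7 adjusted p = 0.132 without replicate 1 and 0.12 without replicate 2, Gbp9 0.186 and 0.0897) and without the PBS replicate 1 (0.152 and 0.191). Gbp9 was also lost without the PBS replicate 2 (0.0775), and in all under 9 of 17 alternatives, among them no expression filter (0.133), no intensity trend (0.0588) and quantile normalization (0.0548). Gbp7 was lost under 5 of 17, among them no expression filter (0.109). Over all alternatives adjusted p ran from 0.00878 to 0.152 for Gbp7 and from 0.0114 to 0.191 for Gbp9, and both changes stayed negative.

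Between the doses, 10 µM against 5 µM, 8 members rose and 0 fell (all but Gbp9), where 11.4% of all tested genes rose and 8.5% fell (19.9% called). All 9 members had both 10 µM samples above both 5 µM samples, as did 37.7% of all tested genes, while 26% had them below. With median-of-ratios scaling the same background was 1097 rises and 1317 falls in place of 1455 and 1081, and 8 members rose. Gbp5 had the largest step, 1.67 ± 0.16 (limma adjusted p = 0.00283), followed by Gbp3 (1.55 ± 0.09), Gbp11 (1.55 ± 0.15), Gbp2 (1.54 ± 0.12) and Gbp6 (1.01 ± 0.08). Gbp7 (0.89 ± 0.10), Gbp4 (0.79 ± 0.17) and Gbp8 (0.79 ± 0.19) followed. Both 10 µM samples of Gbp9 were above both 5 µM samples, but its change of 0.35 ± 0.12 did not pass (limma adjusted p = 0.101). The Gbp8 call was lost under 9 of 16 alternatives (adjusted p 0.0128 to 0.148), among them leaving out the 10 µM replicate 1 (0.132), either 5 µM sample (0.148 and 0.0697) or either PBS sample (0.0536 and 0.0535). The Gbp4 call was lost under 5 of 16 (adjusted p 0.00754 to 0.121), among them leaving out the 10 µM replicate 1 (0.0767) or either 5 µM sample (0.121 and 0.0813).

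Whether the second dose step differed from the first was tested in the same fit, as the change from 5 to 10 µM minus the change from PBS to 5 µM. The second step was the larger for Gbp5 (difference 1.86 ± 0.27, limma adjusted p = 0.031), Gbp7 (1.28 ± 0.18, 0.0284), Gbp3 (1.26 ± 0.16, 0.0261) and Gbp2 (1.20 ± 0.20, 0.0386). These 4 are the chromosome 3 genes. Of the chromosome 5 genes, 0 of 5 passed, with differences of 0.98 ± 0.30 for Gbp4, 0.78 ± 0.21 for Gbp9, 0.67 ± 0.33 for Gbp8, 0.48 ± 0.15 for Gbp6 and 0.33 ± 0.26 for Gbp11. That the clusters differ in this was not tested, and the estimates for Gbp4 and Gbp9 are close to those that passed. Among all tested genes 5.36% were called, 2.88% with the second step above the first and 2.48% with it below. The count of 4 members depended on single samples, with 0 calls without the 10 µM replicate 1 or without either 5 µM sample, 2 without the 10 µM replicate 2, 1 without the PBS replicate 1 and 0 with no expression filter.

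**Figure D2:**
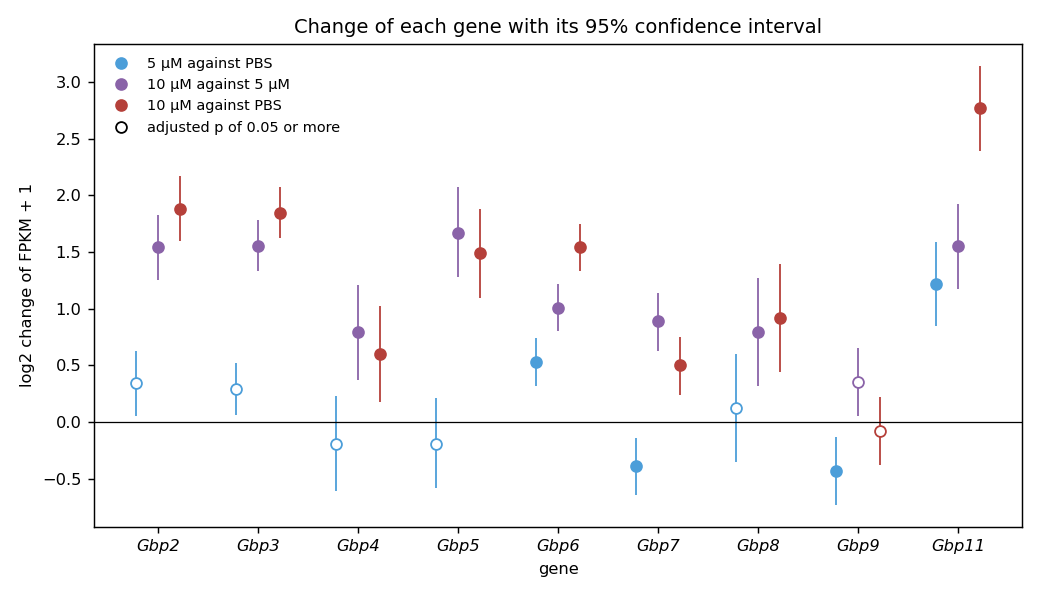
Difference of log2(FPKM + 1) (vertical axis) for each gene (horizontal axis) at 5 µM against PBS, 10 µM against 5 µM and 10 µM against PBS; bars are 95% confidence intervals from limma and open points have an adjusted p of 0.05 or more. Gbp11 leads at 10 µM against PBS with 2.77, and at 5 µM the family spreads from -0.43 (Gbp9) to 1.22 (Gbp11).

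The make-up of the family's transcripts shifted with dose. The summed level of the 9 genes was 129 and 106 FPKM in the PBS samples, 124 and 128 in those at 5 µM, and 348 and 308 in those at 10 µM, so that the PBS and 5 µM samples overlapped and the 10 µM samples lay above both. Gbp2 made up 35.8% and 34.1% of the sum in the PBS samples, 42.5% and 40.1% in those at 5 µM, and 46.2% and 47.7% in those at 10 µM. Gbp9 made up 19.4% and 20.8% in the PBS samples, 13.2% and 14.2% in those at 5 µM, and 7.2% and 6.4% in those at 10 µM. The Gbp7 share ran the same way, with group means of 14.8 ± 0.4% (PBS), 10.4 ± 0.2% (5 µM) and 7.6 ± 0.2% (10 µM; SD, n = 2 each). Gbp2 and Gbp3 together outweighed the rest in every sample, and the share of each was largest at 10 µM. Gbp9, next after Gbp2 with PBS, had a level at 10 µM whose range overlapped that of Gbp7.

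**Figure D3:**
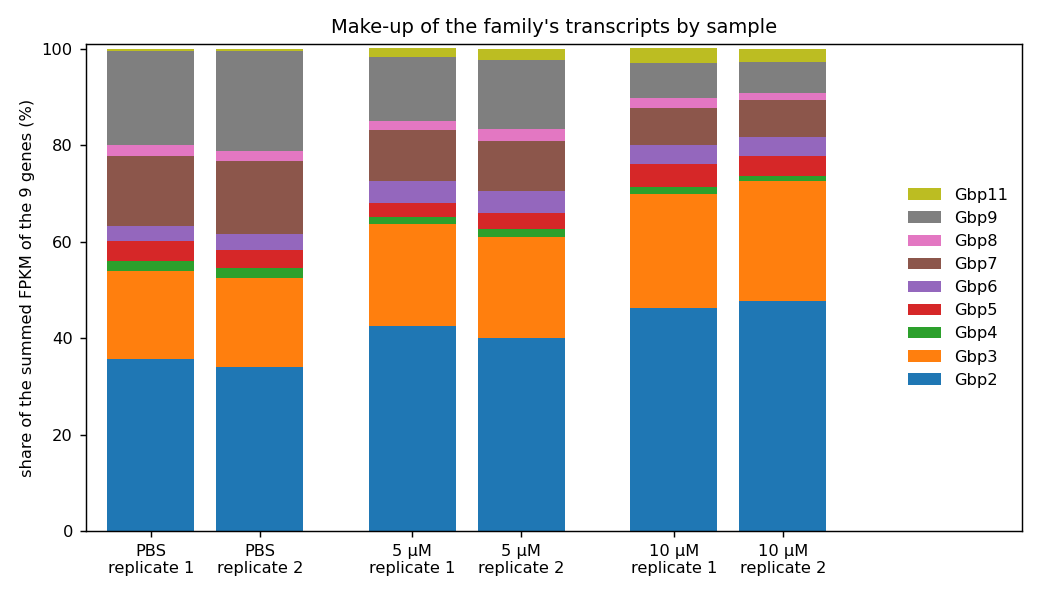
Share of the summed FPKM of the 9 genes (vertical axis, percent) held by each gene in each of the 6 samples (bars). The Gbp9 segment narrows to 7.2% and 6.4% at 10 µM, against 19.4% and 20.8% with PBS, and the Gbp2 and Gbp3 segments widen.

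Replicates of one group also differed in the same direction across the family. Gbp levels were higher in replicate 1 than in replicate 2 for 9 of 9 members in the PBS pair, 1 of 9 in the 5 µM pair and 9 of 9 in the 10 µM pair. Over all tested genes, replicate 1 was higher for 46.5% in PBS, 51.4% in 5 µM and 50.9% in 10 µM samples. The median log2 difference of replicate 2 from replicate 1 was -0.225 over the members and 0.008 over all genes for PBS, 0.14 and -0.004 for 5 µM, and -0.31 and -0.003 for 10 µM. Of the type I interferon-stimulated genes, replicate 1 was higher for 26 of 26 in the PBS pair, 6 of 26 in the 5 µM pair and 20 of 26 in the 10 µM pair. The interferon-gamma induced genes had 13 of 16, 2 of 16 and 8 of 16 for these pairs. Over all genes the spread between the 2 samples of a group exceeded counting noise, with a median chi-square of 1.2 for PBS, 1.43 for 5 µM and 1.94 for 10 µM against 0.455 for counting noise alone.

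GBP genes respond to interferon through a pair of promoter elements, the ISRE, bound by interferon regulatory factors, and the GAS. RefSeq start regions on GRCm38.p6 (250 bases before and 50 after the start, plus strand) were matched for Gbp2 (chr3:142620413-142620712), Gbp3 (chr3:142559794-142560093), Gbp5 (chr3:142496684-142496983) and Gbp7 (chr3:142530086-142530385). They are shown because interferon-induced factors bind there, with matches on either strand to the ISRE core (GAAA, any 2 bases, GAAA) and to the GAS (TTCNNNGAA) in capitals. Gbp4, Gbp6, Gbp8, Gbp9 and Gbp11 were not matched.
Gbp2: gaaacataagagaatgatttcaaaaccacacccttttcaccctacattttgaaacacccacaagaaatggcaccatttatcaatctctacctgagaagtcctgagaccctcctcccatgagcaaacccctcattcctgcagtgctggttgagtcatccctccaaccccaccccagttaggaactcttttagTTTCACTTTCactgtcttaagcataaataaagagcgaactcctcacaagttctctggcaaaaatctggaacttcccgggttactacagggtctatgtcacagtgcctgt
Gbp3: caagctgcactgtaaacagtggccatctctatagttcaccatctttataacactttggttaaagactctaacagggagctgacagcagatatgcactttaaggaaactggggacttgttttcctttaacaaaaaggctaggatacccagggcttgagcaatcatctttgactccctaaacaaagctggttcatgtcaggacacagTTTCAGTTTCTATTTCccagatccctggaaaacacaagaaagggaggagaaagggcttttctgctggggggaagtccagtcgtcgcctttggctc
Gbp5: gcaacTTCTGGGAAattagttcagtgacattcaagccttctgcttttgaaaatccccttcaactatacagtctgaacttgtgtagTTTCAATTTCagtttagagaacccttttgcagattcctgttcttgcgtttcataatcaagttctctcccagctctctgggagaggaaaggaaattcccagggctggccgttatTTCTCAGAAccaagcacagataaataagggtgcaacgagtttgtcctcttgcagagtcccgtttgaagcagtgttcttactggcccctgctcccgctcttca
Gbp7: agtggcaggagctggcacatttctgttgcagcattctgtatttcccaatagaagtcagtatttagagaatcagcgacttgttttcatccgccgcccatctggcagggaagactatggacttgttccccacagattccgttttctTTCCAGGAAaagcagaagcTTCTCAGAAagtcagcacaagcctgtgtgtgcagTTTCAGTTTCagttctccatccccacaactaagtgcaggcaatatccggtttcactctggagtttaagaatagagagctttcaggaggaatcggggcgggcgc
Each of the 4 held the ISRE core on the minus strand, which reads TTTC, any 2 bases, TTTC here, while 3.44% of the 32851 start regions of this length held one. It began 59 bases before the start in Gbp2, 53 in Gbp7 and 165 in Gbp5, and Gbp3 had a pair that overlap by 4 bases and began 45 and 39 bases before the start. Gbp5 and Gbp7 also held 2 GAS matches each, against 8.3% of start regions with at least 1 and 0.45% with both motifs. The RefSeq table gives Gbp3 another start, and its region held neither motif. The Gbp5 region lies inside the Gbp5 gene span given above, which begins at 142493978. The Gbp2 match likewise lies inside the Gbp2 gene span, which begins at 142620602. For Gbp2 and Gbp5 the matches are thus upstream of the RefSeq start only. A match is a string of letters, and binding was not measured.

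**Figure D4:**
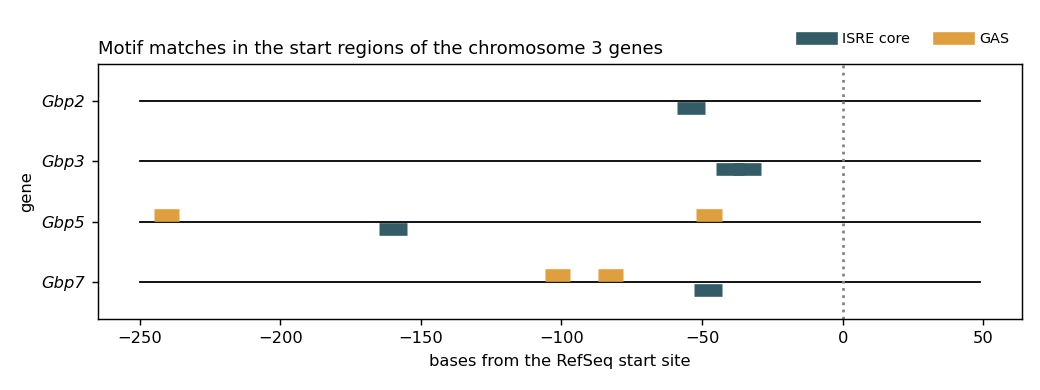
Positions of ISRE core and GAS matches (bars) relative to the RefSeq start site (dotted line, horizontal axis in bases) for the 4 chromosome 3 genes. ISRE cores begin 59, 45 and 53 bases before the start in Gbp2, Gbp3 (with another at 39) and Gbp7, and farther out, at 165, in Gbp5.

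Among the genes that carry the interferon signal to these promoters, Ifngr1, which encodes the ligand-binding chain of the interferon-gamma receptor, had 69.3 and 66.7 FPKM in the PBS samples, 36 and 36.8 in those at 5 µM, and 24 and 24.4 in those at 10 µM. At 10 µM against PBS its log2 change was -1.45 ± 0.04 (limma adjusted p = 2.2e-05). Ifnar1, a chain of the type I interferon receptor, changed by -0.89 ± 0.04 (7.04e-05), and Socs3, a feedback inhibitor of cytokine signalling, by -1.49 ± 0.11 (0.000244). Ifngr1 and Ifnar1 were thus lowest at 10 µM, where 8 of the GBP genes were highest. Usp18, an interferon-induced inhibitor of type I receptor signalling, rose by 1.58 ± 0.07 (6.04e-05) and Jak1 by 0.42 ± 0.05 (0.00113). Jak2 and Ifngr2 did not pass (changes 0.21 and -0.12, adjusted p = 0.066 and 0.0936), and Socs1 was below the expression filter. Of the 16 tested receptor and JAK-STAT genes, 4 rose and 7 fell at 10 µM against PBS (median -0.15), and at 5 µM 1 rose and 5 fell. Of all tested genes, 28.5% rose and 22% fell at 10 µM, so the share of rises is near the background. For 5 µM these background shares were 15.1% and 15.4%.

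Among interferon regulatory factors, Irf1, a main activator of GBP genes in interferon-gamma responses, had 33.7 and 31.9 FPKM in the PBS samples, 29 and 30.3 in those at 5 µM, and 36.9 and 35.1 in those at 10 µM. Its change of 0.13 at 10 µM against PBS did not pass (limma adjusted p = 0.0957). Batf2 rose by 0.55 ± 0.10 (0.00644), Irf7 by 0.19 ± 0.05 (0.0238) and Irf9, the DNA-binding part of the type I complex, by 0.14 ± 0.04 (0.0379). Irf8, a lineage factor of macrophages, changed by -0.38 ± 0.06 (0.00313) and Irf5 by -0.35 ± 0.04 (0.0013). In total 3 of 8 rose and 3 fell at 10 µM, which became 1 and 2 when any 1 of the 4 samples of these groups was left out, and 1 and 3 with median-of-ratios scaling. At 5 µM 0 rose and 2 fell. Of all tested genes 28.5% rose and 22% fell at 10 µM, and 15.1% rose and 15.4% fell at 5 µM. With 8 genes tested, the counts of this list are near those shares.

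Transcripts of the ligands were scarce. Ifng, Ifna4, Ifnl2 and Ifnl3 were listed at 0 FPKM in every sample, and Ifnb1 was between 0.048 and 0.517. Of the ligand list 4 of 11 genes passed the filter. Il18 changed by -0.70 and Il15 by -0.28 at 10 µM against PBS (limma adjusted p = 0.00029 and 0.0257), and Tnf and Il27 rose by 0.44 and 0.26 (0.0225 and 0.0327).

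**Figure D5:**
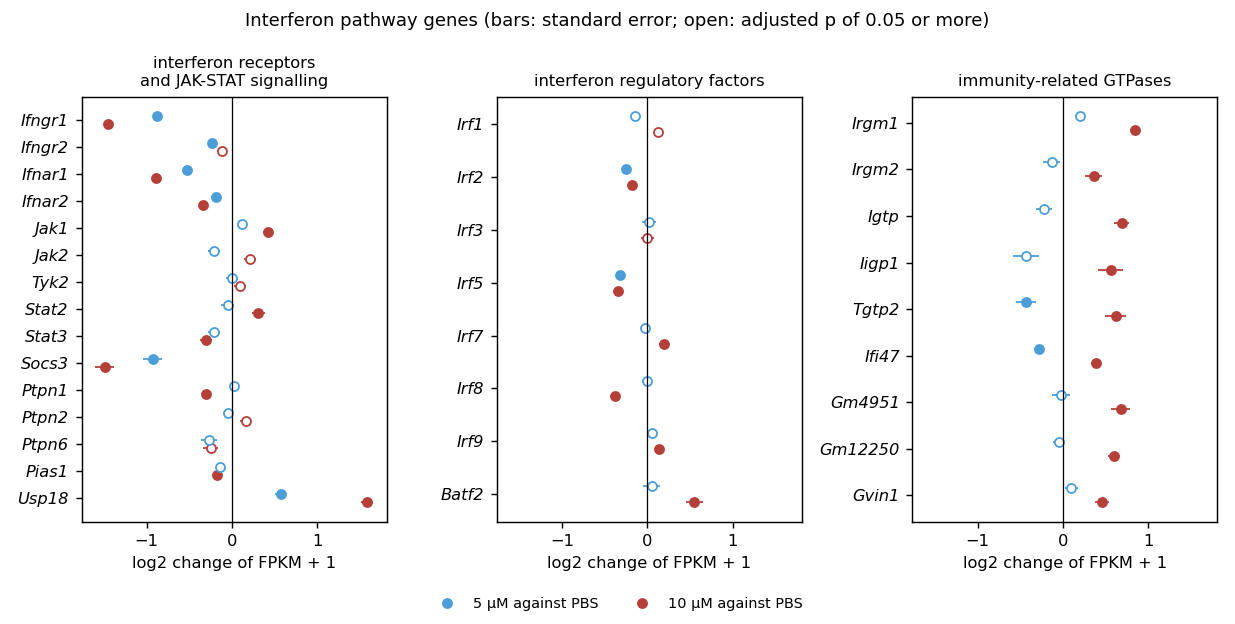
Differences of log2(FPKM + 1) (horizontal axes) at 5 µM and at 10 µM against PBS for tested genes of 3 lists; bars are standard errors and open points have an adjusted p of 0.05 or more. Ifngr1 (-1.45 at 10 µM) and Socs3 (-1.49) lie far left and Usp18 (1.58) far right. The 9 tested genes of the immunity-related GTPase list, Gvin1 among them, lie right of 0 at 10 µM.

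Other interferon-induced genes were higher at 10 µM too. Beside them, 28.5% of all tested genes rose and 22% fell at 10 µM against PBS (median log2 change 0.05). At 5 µM 15.1% rose and 15.4% fell (median 0.01). The list of immunity-related GTPases, mostly smaller GTPases that act with GBPs on pathogen vacuoles, also holds Gvin1, a very large GTPase. In this list 9 of 9 tested genes rose at 10 µM against PBS (median log2 change 0.60). Among them were Irgm1 (0.85 ± 0.06, limma adjusted p = 0.000224), Igtp (0.69 ± 0.09, 0.00188), Gm4951 (0.68 ± 0.11, 0.00396) and Gm12250 (0.60 ± 0.07, 0.00141). At 5 µM 0 rose and 2 fell, Tgtp2 and Ifi47, counts near the shares of all tested genes. Their median of 0.60 stood beside 1.49 for the GBP genes, a difference that was not tested. Of the 26 type I interferon-stimulated genes, 23 rose and 1 fell at 10 µM (median 0.66), led by Rsad2, which encodes viperin (3.03 ± 0.12, 3.78e-05), and with Ifi27l2a as the fall (-1.18 ± 0.06, 7.76e-05). At 5 µM 8 rose and 1 fell (median 0.11). Of the 16 immune genes typical of interferon-gamma responses, 14 rose and 0 fell at 10 µM (median 0.84), among them H2-Aa, H2-Ab1 and H2-Eb1, chains of class II molecules (1.89, 1.54 and 1.57), and Cd274, which encodes PD-L1 (1.89). At 5 µM 9 rose and 0 fell (median 0.27). Of the 14, Cxcl9 and Ciita reached 1 FPKM in the 10 µM samples alone (below 1 in the other 4), so the expression filter kept them because they were high there and fixed their direction.

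Of 9 inflammasome genes, 3 rose and 3 fell at 10 µM against PBS, near the 28.5% and 22% of all tested genes. Casp4, which encodes caspase-11, had 8.47 and 6.64 FPKM in the PBS samples, 8.65 and 9.76 in those at 5 µM, and 17.1 and 15.9 in those at 10 µM (log2 change 1.04 ± 0.12 at 10 µM against PBS, limma adjusted p = 0.00103). Casp1 rose by 0.88 ± 0.06 (0.000172) and Aim2 by 0.41 ± 0.05 (0.00117). Il1b passed the filter through its PBS samples alone. Nlrp3 changed by -1.58 ± 0.05 (2.34e-05), Il1b by -3.88 ± 0.30 (0.000293) and Il18 by -0.70 ± 0.05 (0.00029), while Gsdmd, the pore-forming substrate of the caspases, changed by 0.14 (adjusted p = 0.0855). The ATG8 conjugation genes, which direct GBPs to their target membranes, rose in 7 of 10 at 10 µM. Among them were Atg12 (0.61 ± 0.05), Gabarapl1 (0.60 ± 0.10), Atg3 (0.53 ± 0.06) and Atg7 (0.53 ± 0.04). At 5 µM 4 of the 10 rose, where 15.1% of all tested genes did. Of 8 prenylation genes 3 rose (Rabggtb 0.36, Rce1 0.28 and Rabggta 0.18) and 1 fell (Fnta -0.19), also near those shares. Of 9 other large GTPases of the dynamin superfamily, 1 rose and 2 fell (Ehd1 -1.75 ± 0.11 and Ehd4 -0.84 ± 0.06), with a median of -0.03.

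Over the 6 samples, the tested genes outside the family with the profile nearest to the members' mean were Gpr141, Mx1, Clic5, Ifit1, Ifit3b and Kdr. Their root mean square distance, on centred log2(FPKM + 1), was 0.051 for Gpr141, 0.097 for Mx1, 0.102 for Clic5, 0.111 for Ifit1, 0.114 for Ifit3b and 0.118 for Kdr. Clic5 and Kdr reached 1 FPKM in the 10 µM samples alone. The expression filter thus kept these genes because they were high there, which favoured a profile like that of the members. Gbp2 and Gbp3 were each other's nearest genes of all 12722, at 0.039. The nearest to Gbp6 was Usp18 (0.04) and to Gbp4 Ifi208 (0.07), while Gm22516 was nearest to Gbp7 (0.035), followed by Iigp1, an immunity-related GTPase (0.068). For Gbp11 they were H2-Q6 (0.148) and Rsad2 (0.165), and for Gbp9, Rbl1 (0.063) and Lars2 (0.068). These distances come from 6 samples in 3 groups and describe likeness only.

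Markers of other cell types moved with dose. The summed level of 11 stromal and fibroblast markers was 1939 to 1981 FPKM with PBS, 525 to 636 at 5 µM and 369 to 389 at 10 µM, with 7 of 9 tested markers lower at 10 µM against PBS. For 10 neutrophil markers it was 136 with PBS, 63.2 to 66.1 at 5 µM and 14.7 to 17.5 at 10 µM (6 of 6 lower), and for 7 B cell markers 9.41 to 9.44, 4.72 to 4.78 and 2.33 to 2.52 (2 of 2 lower). For 11 T and NK cell markers, the cells that make interferon-gamma, it was 5.28 to 5.84, 4.61 to 4.94 and 2.59 to 2.65 FPKM, most of it Cd4, with Cd3d at 0 in every sample. The 7 endothelial markers summed to 7.27 to 8.15, 6.22 to 6.42 and 16.9 to 17.2 FPKM, with Vwf and Kdr higher and Pecam1 lower at 10 µM and Cldn5 at no more than 0.025. Kdr reached 1 FPKM in the 10 µM samples alone and Vwf in KN93-treated samples alone. Pecam1, the neutrophil marker Camp and the B cell marker Ebf1 reached it in PBS samples alone. The filter thus fixed these directions, and the counts of lower neutrophil and B cell markers include Camp and Ebf1. Of all tested genes 22% were lower at 10 µM against PBS. The 9 dendritic cell markers summed to 10 to 11, 13.3 to 14.3 and 8.55 to 10.3 FPKM, most of it Itgax. The part of these cells in the GBP changes was not tested.

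Within the span of Gbp2, the microRNA gene Mir6381 is annotated on the opposite strand and shares 24 bases with a Gbp2 exon. It had 53 and 54 fragments in the PBS samples, 70 and 116 in those at 5 µM, and 158 and 155 in those at 10 µM. Since the use of strand in counting is not stated, fragments of Gbp2 and Mir6381 cannot be told apart there.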

How the data were processed

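The deposited values are FPKM, made by the authors from total RNA libraries of 6 samples, in 1 table with 1 column per sample. The submitters' processing notes name HISAT2 and GRCm38. Not given in the sources used here are the version, the counting tool, its annotation, its handling of strand and multimapping, and any filter. Every column belonged to a sample, and the prefix DXM in the column names is unexplained.

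Gene IDs were matched to GENCODE M21 (54409 of 54446 entries). Multiplying FPKM by exon length and dividing by the value of 1 fragment gave whole numbers (within 0.1) for 98.78% to 98.96% of values of up to 20 fragments, and so depth and fragments. Log2(FPKM + 1) was fitted with limma 3.58.1 (R 4.3.3, eBayes with trend, 3 groups in one fit, two-sided, Benjamini-Hochberg over the 12722 genes that reached 1 FPKM in 2 or more samples), which was tested on simulated data. A pseudocount of 1 FPKM makes the change of low genes, such as Gbp11, smaller than the ratio of their FPKM. Coding identity came from global alignments in Biopython 1.88.

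The members and the 10 pathway and 7 marker lists were chosen with earlier results of these data known. From each list the text names its count and up to 4 tested genes with the smallest p at 10 µM against PBS, plus Irf1, Irf8, Irf9, Ifngr1, Ifngr2, Jak2 and Socs1. Likeness used the 6 nearest genes. Jak1, Casp4, Aim2, Cxcl9, Ciita, Gsdmd, Tgtp2, Ifi47, Gvin1, Cd68, Lyz2, Camp, Cd3d, Cldn5, Mir6381 and the ligands at or near 0 were named after their values were seen. Il18 stood in 2 lists. Of the further regulators chosen by name, 1 is not reported here. No set test was run. Alternatives were other pseudocounts, filters, scalings and priors, fits of 2 groups, a replicate block, voom on recovered fragments, a fold threshold and each sample left out.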

Additional observations from a re-analysis of the deposited data

How the results depend on the processing

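Every alternative kept 10 µM against PBS at 6 to 8 called members except the threshold of a log2 change of at least 1, which left 5 there, 5 at 10 µM against 5 µM and 1 at 5 µM against PBS. That threshold left 998, 192 and 418 called genes in all in the same comparisons. With no expression filter 2 members were called at 5 µM against PBS and 0 for the difference of the dose steps, and 1350 genes in all at 10 µM against 5 µM. With 1 sample left out, where a lone sample of a group is assumed to vary like the others, called members ran from 6 to 8 at 10 µM against PBS, 6 to 8 at 10 µM against 5 µM, 2 to 4 at 5 µM against PBS and 0 to 4 for the dose steps. Called genes in all ran from 4575 to 5977, 869 to 1922 and 1897 to 3856 in the first 3 of these. Directions turned only for changes that did not pass. Gbp8 at 5 µM against PBS was -0.05 without the 5 µM replicate 2 and -0.02 without the PBS replicate 2, in a range of -0.05 to 0.3 with 1 sample left out. Gbp9 at 10 µM against PBS was 0.07 without the 10 µM replicate 2 and 0.01 without the PBS replicate 1, in a range of -0.24 to 0.07. The Gbp11 difference of the dose steps was -0.24 with a pseudocount of 0.1 FPKM and -0.37 with voom, and Gbp11 at 10 µM against PBS ranged from 2.61 to 4.09. With a filter of 5 FPKM, Gbp4 and Gbp8 were not tested. The cause of these shifts was not tested.

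Replicate numbers follow the order of the samples, and the labels do not say whether samples of the same number were paired. The replicate differences of the groups had correlations of -0.055, 0.014 and 0.037 across genes, which show no strong shared shift but cannot exclude pairing. With the replicate block 8 members were called at 10 µM against PBS, 7 at 10 µM against 5 µM, 4 at 5 µM against PBS and 4 for the dose steps. The block called Gbp2 at 5 µM (adjusted p = 0.0445) and left Gbp9 at 5 µM (0.0531) and Gbp8 between the doses (0.056) uncalled, and called 3 of 8 interferon regulatory factors at 10 µM. Single genes other than members were followed over the alternatives only in the counts of their lists. Depth limits Gbp11 with PBS most, at 36 and 44 fragments.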
